A study of Mus musculus with 72 samples.

Results

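The 34 genes described here encode enzymes and transporters of glucose oxidation in the mouse heart, from glucose uptake through glycolysis and the pyruvate dehydrogenase complex to the tricarboxylic acid (TCA) cycle. They were chosen by symbol, with no measured value in the rule, from the 24237 genes of the count table, and each was found under 1 Entrez identifier. They comprise 2 glucose transporters, 8 genes of upper glycolysis, 7 of lower glycolysis, 2 lactate dehydrogenase subunits, 3 genes of the pyruvate dehydrogenase complex and 12 of the TCA cycle.

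Adult hearts were compared between 4 groups. The reference was naïve Ahr+/+ mice, which carry the aryl hydrocarbon receptor (AHR, a ligand-activated transcription factor) and were not exposed to TCDD. The second group was Ahr-/- mice, which lack the receptor in every cell and were crossed into C57BL/6J. All Ahr+/+ mice were C57BL/6J as well, per the methods of the study. By the study's methods the dams of Ahr+/+ mice were gavaged with corn oil or TCDD and Ahr-/- dams were left untreated, while the labels' treatment field names TCDD for all 72 samples. The other 2 groups were Ahr+/+ mice exposed in utero, by gavage of the dam, to TCDD (dioxin, a potent AHR ligand), at a low dose of 0.1 μg/kg or a high dose of 1 μg/kg. Hearts were taken at about 10 months by the study's methods and at 9 months by the labels, long after dosing, and the sources differ on the gestational days of the gavage. The ventricles and each of both atria were sequenced apart, with 3 poly-A RNA-seq libraries for each chamber, sex and group, 72 in all, from 3 mice of each sex and group. The study asked whether disturbing AHR signalling during development leaves a lasting change in the adult heart.

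The heart takes most of its energy from fatty acids, but glucose is its second fuel and the fetal heart relies on it more. Hexokinase traps glucose, phosphofructokinase commits it to glycolysis, and pyruvate kinase yields pyruvate, which either becomes lactate or enters mitochondria and is turned into acetyl-CoA for the TCA cycle. Several steps exist as muscle-type and widely expressed isoenzymes, encoded by separate genes.

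Library totals ran from 11873417 to 28789382 counts, with a median of 19231739. The members were well covered: each had at least 423 counts in every library. In 17 of the 72 libraries genes of sex or chamber went against the label. In 8 of them Xist or Y-linked genes went against the labelled sex, 8 labelled as atria held under 100 CPM (counts scaled to the library total) of Myl4, the atrial essential light chain, and 5 labelled as ventricles held over 500 CPM. These 17 included 12 of libraries 49 to 72 and 5 of libraries 1 to 48, and 4 were against both labels. Those 12 formed 1 pattern: in each of the 4 groups the library among numbers 49 to 72 labelled female right atrium held Y-linked genes, that labelled male left atrium held under 100 CPM of Myl4, and that labelled male ventricle held Xist and over 500 CPM of Myl4. No female ventricle library was among them, but 1 of 3 naïve male ventricle libraries (library 53) and 1 of 3 high-dose male ventricle libraries (library 65) were. Chamber and male ventricle results are therefore given with and without such libraries. Ahr itself was at 8.59 to 30.8 CPM in naïve libraries and at 2.00 to 9.23 CPM in Ahr-/- libraries, so the ranges overlapped.

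Member levels are given as CPM scaled by edgeR's TMM factors over all 72 libraries, and those of Ahr and of marker genes as CPM of the library total alone. Levels between genes were compared per kilobase of coding sequence, over the 5 naïve ventricle libraries that matched their labels. Malate dehydrogenase and lactate dehydrogenase stood highest. Mdh1, the cytosolic malate dehydrogenase of the malate-aspartate shuttle, was at 3119 ± 189 CPM per kb (SD, n = 5). Ldhb, the heart-type lactate dehydrogenase subunit, was at 2920 ± 175 CPM per kb, and the ranges of 1 SD of both overlapped. Gapdh followed at 2639 ± 519 CPM per kb. The 5 lowest members were all isoenzymes that many tissues use, namely Eno1 at 66.1 ± 4.67, Hk1 at 58.9 ± 9.42, Slc2a1 at 42.3 ± 23.2, Pfkl at 30.2 ± 9.59 and Pfkp at 17.7 ± 0.606 CPM per kb. Their muscle-type partners were far above them. Eno3 stood at 1367 ± 241, Slc2a4 at 594 ± 91.1, Pfkm at 584 ± 64.0 and Hk2 at 223 ± 41.6 CPM per kb.

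Eno1, the widely expressed enolase, carries an uncertainty in every value given here, its place among the lowest members above included. A near-identical copy on chromosome 18, Eno1b, held between 1.77 and 1.89 times the Eno1 count in each of the 72 libraries, and how reads of both were assigned was not tested.

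The clearest difference among the groups lay in ventricles of females exposed to the high dose. There, 12 of 34 members were called higher than in naïve females (edgeR's quasi-likelihood test, Benjamini-Hochberg adjusted p under 0.05) and 0 were called lower. Among all 14006 genes tested, 12.2% were called higher and 11.4% lower, against 35.3% and 0 of the members. From hexokinase to lactate dehydrogenase 10 of 17 members were called higher, and in the pyruvate dehydrogenase complex and TCA cycle 2 of 15. The difference between these counts was not tested. The median log2 fold change was 0.55 over the glycolysis and lactate dehydrogenase members, 0.03 over the pyruvate dehydrogenase and TCA members and 0.01 over all genes.

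**Figure D1:**
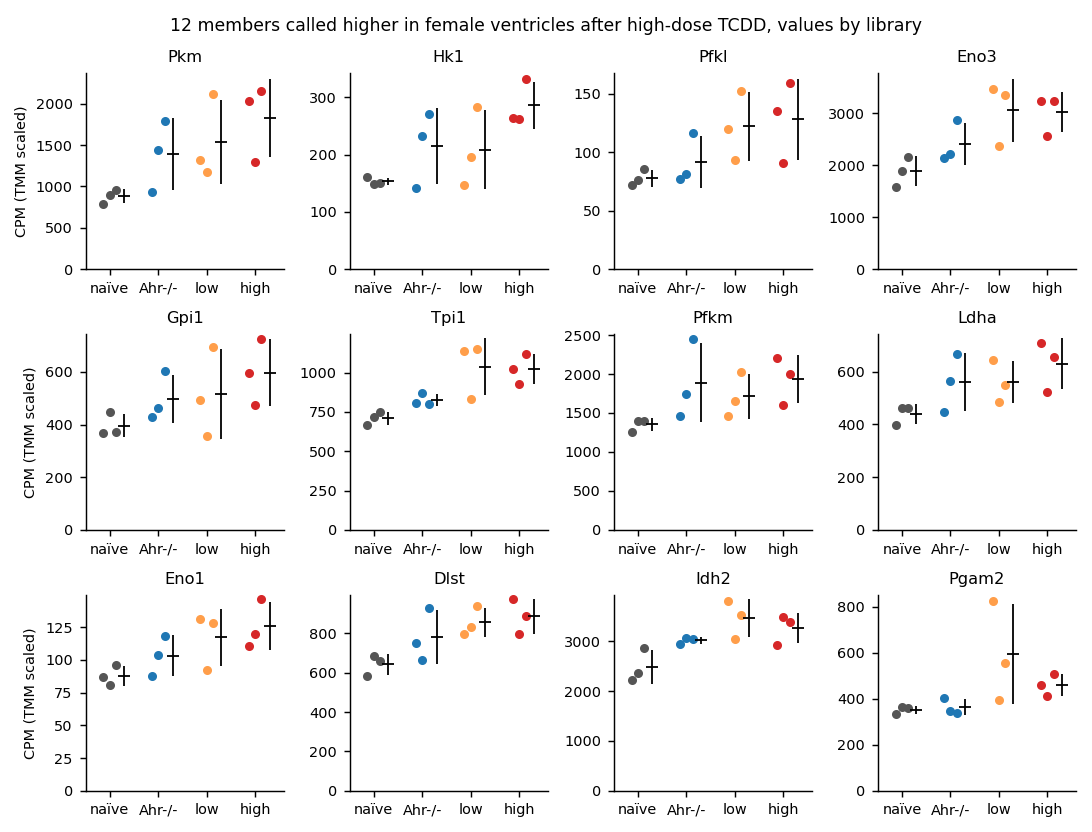
Values by library in female ventricles for the 12 members called higher after high-dose TCDD; the vertical axis is TMM-scaled CPM from 0, each point is 1 library, and the bar beside each group is the mean with its SD (n = 3). The Pkm values of the 3 high-dose libraries, 1293 to 2157 CPM, lie above the 3 naïve ones, 789 to 962 CPM, and the 3 Ahr-/- libraries run from 935 to 1796 CPM.

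Pkm, which encodes the pyruvate kinase of muscle and of most tissues other than liver, moved the furthest. The gene lies at chr9:59656576-59679372 (GRCm38). Its levels were 789, 899 and 962 CPM in naïve female ventricles and 2036, 1293 and 2157 CPM after the high dose. The groups did not overlap, and the log2 fold change was 1.09 (SE 0.18, edgeR adjusted p = 0.00203). Hk1, the hexokinase held at the outer mitochondrial membrane of many tissues, came next (chr10:62268855-62379920). It was at 161, 149 and 150 CPM in naïve and at 263, 262 and 333 CPM in high-dose libraries, with a log2 fold change of 0.94 (SE 0.13, edgeR adjusted p = 7.06e-04). Hk2, the hexokinase of insulin-sensitive muscle, was at 595 to 679 CPM in naïve and at 630 to 720 CPM in high-dose libraries and was not called (log2 fold change 0.12, SE 0.12). The Hk2 share of summed Hk1 and Hk2 CPM was thus 80.4% ± 1.6 (SD, n = 3) in naïve and 70.1% ± 1.49 (SD, n = 3) in high-dose libraries, without overlap, which by the exact two-sided permutation test gave p = 0.1, the smallest that 3 against 3 allows.

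Both Hk1 and Pkm stayed called in each of the 6 fits that left out 1 library and in the 9 other fits with the threshold of 0.05, with edgeR or DESeq2 adjusted p between 3.78e-10 and 0.0461 for Hk1 and between 3.3e-08 and 0.0414 for Pkm. Their promoters are shown for that reason, as the 250 bases before a RefSeq start (GRCm38.p6), on the gene's strand, 5′ to 3′. Capitals mark GCGTG, the core of the AHR response element, and ACGTG, the core of the hypoxia response element, on either strand, overlaps included. The Hk1 window is chr10:62340422-62340671 (minus strand), and the Pkm window is chr9:59656977-59657226 (plus strand). Each gene has 2 listed starts, and the one shown, which lies inside the gene span given above, was chosen because it holds a match.

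Hk1: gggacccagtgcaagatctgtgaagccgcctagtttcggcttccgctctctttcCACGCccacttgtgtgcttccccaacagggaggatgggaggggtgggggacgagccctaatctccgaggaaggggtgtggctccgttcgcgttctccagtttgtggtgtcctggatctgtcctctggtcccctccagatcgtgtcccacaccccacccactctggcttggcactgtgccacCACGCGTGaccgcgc

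Pkm: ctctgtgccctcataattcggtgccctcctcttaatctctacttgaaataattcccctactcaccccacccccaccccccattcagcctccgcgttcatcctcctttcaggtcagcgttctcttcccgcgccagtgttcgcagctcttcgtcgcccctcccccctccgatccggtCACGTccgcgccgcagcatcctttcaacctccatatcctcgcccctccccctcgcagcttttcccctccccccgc

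The Hk1 window held 3 matches to GCGTG and 0 to ACGTG, and a second listed Hk1 start held neither. The Pkm window held 0 matches to GCGTG and 1 to ACGTG, and another listed Pkm start held neither. Over the 32 members with a promoter in the RefSeq table, 19 had GCGTG before at least 1 listed start, which is 59.4%, against 30.9% of the 27025 genes in the table. ACGTG was found for 12 members, or 37.5%, against 18.5% of all genes. Among the 12 members called higher, 7 held GCGTG and 3 held ACGTG, neither a larger share than over the 32 members. These counts do not allow for the number of listed starts, and a gene with more starts has more windows in which to match. A match of 5 letters is a description of the sequence and not a binding site.

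Of the other upper glycolysis members, 4 of 6 besides the hexokinases were called higher and Pfkp and Aldoa were not. Pfkl, the liver-type phosphofructokinase subunit (chr10:77986947-78009807), was at 71.5, 76.0 and 85.6 CPM in naïve and at 135, 90.5 and 159 CPM in high-dose libraries. Its log2 fold change was 0.76 (SE 0.18, edgeR adjusted p = 0.0108). Pfkm, the muscle subunit and by far the most abundant of the 3 (chr15:98092589-98132447), was at 1256, 1402 and 1399.5 CPM in naïve and at 2203, 1605 and 2003 CPM in high-dose libraries, a log2 fold change of 0.56 (SE 0.15, edgeR adjusted p = 0.0166). Neither subunit overlapped between groups. Gpi1, glucose-6-phosphate isomerase (chr7:34201327-34230336), was at 368, 447 and 372 CPM against 595, 473 and 725 CPM (log2 fold change 0.63, SE 0.16, edgeR adjusted p = 0.0114), again with every high-dose library on top. Tpi1, triose phosphate isomerase (chr6:124810586-124814158), was at 664, 717 and 748 CPM against 1025, 930 and 1118 CPM (log2 fold change 0.57, SE 0.13, edgeR adjusted p = 0.00737).

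In lower glycolysis the enolases led after Pkm. Eno3, the muscle enolase (chr11:70653125-70662513), was at 1585, 1892 and 2164 CPM in naïve and at 3243, 2570 and 3239 CPM in high-dose libraries, with a log2 fold change of 0.72 (SE 0.16, edgeR adjusted p = 0.00728). Eno1 had a log2 fold change of 0.55 (edgeR adjusted p = 0.0116) and Pgam2, the muscle phosphoglycerate mutase, of 0.42 (edgeR adjusted p = 0.0254). Gapdh was just outside the threshold at 0.47 (edgeR adjusted p = 0.0593). Pgk1 was at 0.04 and Pgam1 at -0.04. Aldolase A, Aldoa, of upper glycolysis was at -0.15 (edgeR adjusted p = 0.414), with all 3 high-dose libraries (1991 to 2268 CPM) below the naïve ones (2399.8 to 2518 CPM).

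Ldha, the lactate dehydrogenase subunit of fast muscle that many tissues use (chr7:46842274-46855627), was at 397, 464 and 461 CPM in naïve and at 710, 522 and 655 CPM in high-dose libraries (log2 fold change 0.55, SE 0.14, edgeR adjusted p = 0.0143). Ldhb changed by 0.14 on the log2 scale (edgeR adjusted p = 0.479). The Ldhb share of both subunits was 87.1% ± 0.585 (SD, n = 3) in naïve and 83.6% ± 2.32 (SD, n = 3) in high-dose libraries, without overlap (exact two-sided permutation p = 0.1). The glucose transporters Slc2a1 and Slc2a4 had log2 fold changes of 0.42 and 0.34, neither called (edgeR adjusted p = 0.0582 and 0.0764).

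Of the mitochondrial members, Dlst, the succinyltransferase of the 2-oxoglutarate dehydrogenase complex, was called at 0.50 (SE 0.13, edgeR adjusted p = 0.0157) and Idh2, the NADP-dependent isocitrate dehydrogenase, at 0.44 (SE 0.15, edgeR adjusted p = 0.0493). Idh2 was lost in 5 of the 6 fits without 1 library. The other 13 lay between -0.37 and 0.21. The lowest, Dlat, the acetyltransferase core of pyruvate dehydrogenase, had a log2 fold change of -0.37 (edgeR adjusted p = 0.0749). Citrate synthase, Cs, was at -0.17, Idh3a, the catalytic subunit of the NAD-dependent isocitrate dehydrogenase, at -0.29, and Ogdh at -0.08. None of these passed the edgeR test, but the high-dose libraries of Dlat and Cs all lay below the naïve ones, and DESeq2 called Dlat lower (adjusted p = 0.0395). Over the 34 members, 15 had all high-dose libraries above the naïve ones, 3 (Aldoa, Dlat and Cs) had them below and 16 overlapped. The share of all genes that separated in this way is not given here, so these counts cannot be set against it.

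Other genes of the same pathways, taken from a list of 59 of which 54 were tested, split in both directions: 7 were called higher (13.0%) and 8 lower (14.8%), near the 12.2% and 11.4% of all genes. The lower ones included both subunits of the mitochondrial pyruvate carrier, Mpc1 with a log2 fold change of -1.18 (SE 0.13, edgeR adjusted p = 2.80e-04) and Mpc2 of -0.59 (SE 0.14, edgeR adjusted p = 0.0102). Slc16a1, the lactate and pyruvate transporter of the plasma membrane, was at -0.71 and Pdpr, a regulatory subunit of pyruvate dehydrogenase phosphatase, at -0.77. The higher ones included Pck2, the mitochondrial phosphoenolpyruvate carboxykinase, at 0.73, glycerol-3-phosphate dehydrogenase Gpd1 at 0.49 and the muscle fructose bisphosphatase Fbp2 at 0.46. Mpc1, Mpc2, Slc16a1 and Pdpr were called in all 6 fits without 1 library, and of the 3 higher genes named none was.

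Other measures moved with this comparison. Of 6 cardiomyocyte markers, 5 (Actc1, Actn2, Myh6, Tnni3 and Tnnt2, but not Ttn) were called higher in the high-dose group, with log2 fold changes of 0.77 to 1.23. The sum of the 6 was 43356 to 51604 CPM in naïve and 63461 to 81381 CPM in high-dose libraries. The same sum reached 73506 CPM in Ahr-/- library 60 and 80006 CPM in low-dose library 72. These libraries held the highest Pkm of their groups, 1796 and 2122 CPM. Each is also the highest-numbered library of its group and the sole one from the later series of library numbers. The library of that series held the highest Pkm in naïve and high-dose female ventricles as well, at 962 and 2157 CPM. The part of library series in this match of marker sum and Pkm was not tested. The fibroblast sum was 961 to 1589 CPM in naïve and 921 to 1003 CPM in high-dose libraries, with 1 of 4 genes called higher and 1 lower, and blood, adipocyte, endothelial and atrial sums overlapped. In whole tissue, more cells of a type and more RNA per cell cannot be told apart, and the part of these markers in the members' result was not tested.

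The members called higher were also richer in G and C. Their longest transcripts had a median GC content of 55.1% (51.3% to 57.7%), against 51.2% over the other 22. The median was 54.5% over the transport, glycolysis and lactate dehydrogenase members and 50.2% over the pyruvate dehydrogenase and TCA members. Across the 34 members Pearson's r between GC content and log2 fold change was 0.63, a description over genes that share these 6 libraries. With the trend of fold change on GC content removed, 4 members stayed called higher (Hk1, Pkm and Ldha of 17 glycolysis and lactate dehydrogenase members, and Dlst of 15 mitochondrial ones) and 1 was called lower (Aldoa, log2 fold change -0.46, edgeR adjusted p = 0.0283), while 7.77% of all genes were called higher and 5.43% lower. Pkm then stood at 0.75 (SE 0.17, edgeR adjusted p = 0.0110) and Hk1 at 0.64 (SE 0.11, edgeR adjusted p = 0.00324). The adjusted p of Aldoa was 0.414 in the fit without that correction. Mpc1 at -1.10 and Mpc2 at -0.76 were called with the trend removed, as were Pdpr at -0.69 and Pck2 at 0.66. Slc16a1 at -0.41 (edgeR adjusted p = 0.0539), Fbp2 at 0.39 (edgeR adjusted p = 0.0722) and Gpd1 at 0.18 (edgeR adjusted p = 0.404) were not. Over all settings the highest adjusted p was 0.0806 for Mpc1 and 0.252 for Mpc2.

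**Figure D2:**
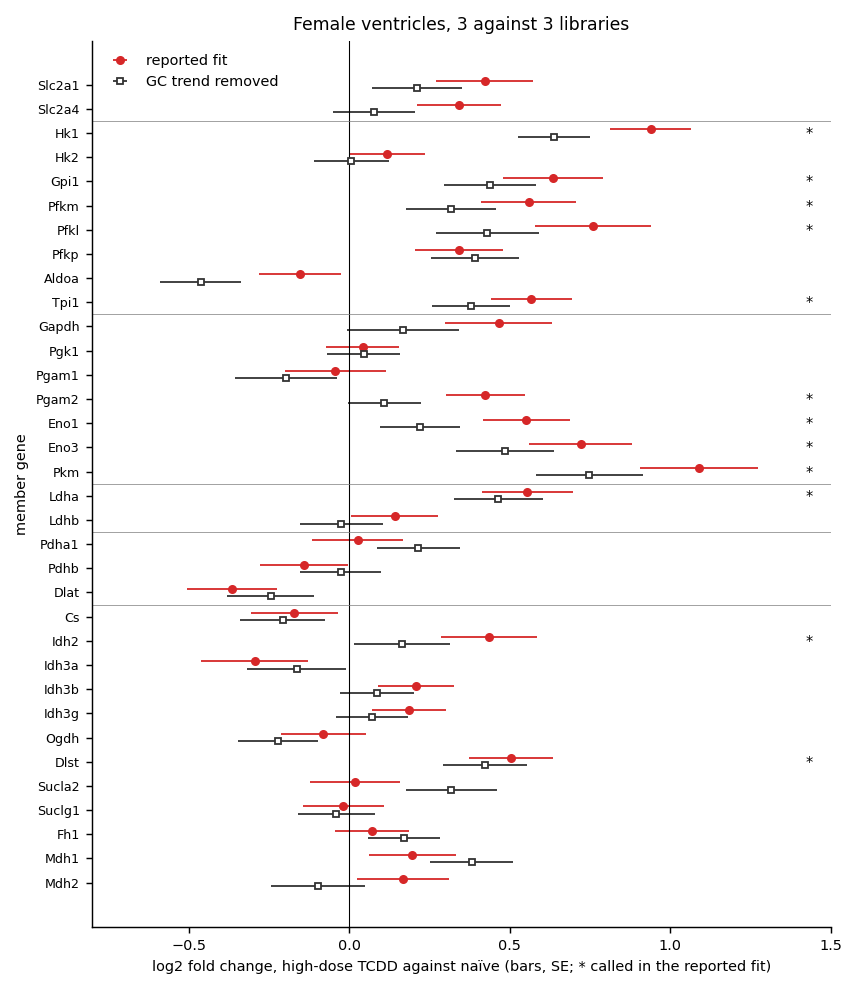
Log2 fold change of the 34 members in female ventricles, high-dose TCDD against naïve (3 against 3 libraries), with its SE; red circles are the reported fit, open squares the fit with the GC trend removed, lines separate the roles, and stars mark the 12 called. Glycolysis members sit mostly right of 0 and TCA members around it, and Pkm moves from 1.09 to 0.75 when the trend is removed.

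The result rested unequally on single libraries and on scaling. Without naïve library 35 there were 4 members called higher (5.53% of all genes), without high-dose library 66 there were 6 (6.95%) and without high-dose library 43 there were 7 (8.44%). Scaling by library size alone, under which the median of all genes moved to -0.17, gave 4 members (4.35% of all genes), and estimating the spread from all 4 groups of female ventricles gave 2, Hk1 and Pkm (3.14% of all genes). Tpi1 and Eno3 joined Hk1 and Pkm in being called without any 1 library.

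In low-dose female ventricles 0 members were called by edgeR. All 3 libraries lay above the naïve ones for 14 of 34, but the share of all genes that did so is not given here. The log2 fold change was 0.80 for Pkm (SE 0.25), 0.73 for Pgam2, 0.69 for Eno3, 0.64 for Pfkl and 0.54 for Tpi1, and the smallest edgeR adjusted p among the 34 was 0.164. In all, 31 of 34 members were above 0, with a median of 0.39 over the members and 0.02 over all genes. Low-dose Pkm was at 1315, 1179 and 2122 CPM and Eno3 at 3467, 2361 and 3348 CPM, each library above the naïve ones. These values share their naïve libraries with the high-dose ones. Between high and low dose, tested directly, 0 members were called by edgeR and 0 by DESeq2, 1 had an unadjusted p under 0.05 (Pdhb), and 0% of all genes were called. Low-dose Hk1 was at 147, 196 and 283 CPM, overlapping both other groups.

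In Ahr-/- female ventricles 0 members were called by edgeR or DESeq2. Pkm had a log2 fold change of 0.70 (SE 0.23), Hk1 of 0.53, Slc2a4 of 0.53 and Pfkm of 0.52, with a smallest edgeR adjusted p of 0.515 among members and 0.0216% of all genes called. Pkm was at 935, 1445 and 1796 CPM in this group. When Ahr-/- library 39 was left out, 4 members were called higher (Hk1, Pfkm, Pkm and Slc2a4), while 3.69% of all genes were.

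Over the 17 comparisons of sex, chamber and group other than high-dose female ventricles, 0 of 34 members were called in each by edgeR, where at most 0.0216% of all genes were. DESeq2 called 5 members in 2 of them, Eno1, Pfkl and Pkm in low-dose female left atria and Eno3 and Pkm in low-dose female ventricles, where it called 2.89% and 3.68% of all genes higher. Over the 17 comparisons these 5 were 0.865% of member tests, and DESeq2 called 0.696% of all gene tests. Of 578 member tests 37 had an unadjusted p under 0.05, and 36 of these were higher than naïve. The same count over all gene tests is not given here. The median over the members was above 0 in 16 of the 17 comparisons, the exception being Ahr-/- female right atria at -0.24. Those comparisons share naïve libraries in sets of 3, so their directions are not separate observations. They were also made as labelled. Every comparison in female right atria, male left atria and male ventricles held libraries against their labels, and those in female ventricles held none. The part of this difference in where members were called was not tested.

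High-dose male ventricles changed when the libraries against their labels, 53 and 65, were left out, which kept 2 libraries a group. The 4 libraries kept are also those of numbers 1 to 48, so label match and library series cannot be told apart in this fit. Of 34 members 5 were then called higher and 1 lower, while 7.13% of all genes were called higher and 8.81% lower. The higher ones were Pgam2 (log2 fold change 1.23, SE 0.31, edgeR adjusted p = 0.0273), Mdh2, the mitochondrial malate dehydrogenase (1.15), Idh3g, a regulatory subunit of isocitrate dehydrogenase (1.00), Suclg1, a subunit of succinyl-CoA ligase (0.95), and Eno3 (0.91). Slc2a1, the widely expressed glucose transporter, was lower (-0.97, SE 0.27, edgeR adjusted p = 0.0380). Pkm was at 0.65 (edgeR adjusted p = 0.159) and Hk1 at -0.04 (edgeR adjusted p = 0.916) in that fit. As labelled, 0 of these were called.

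**Figure D3:**
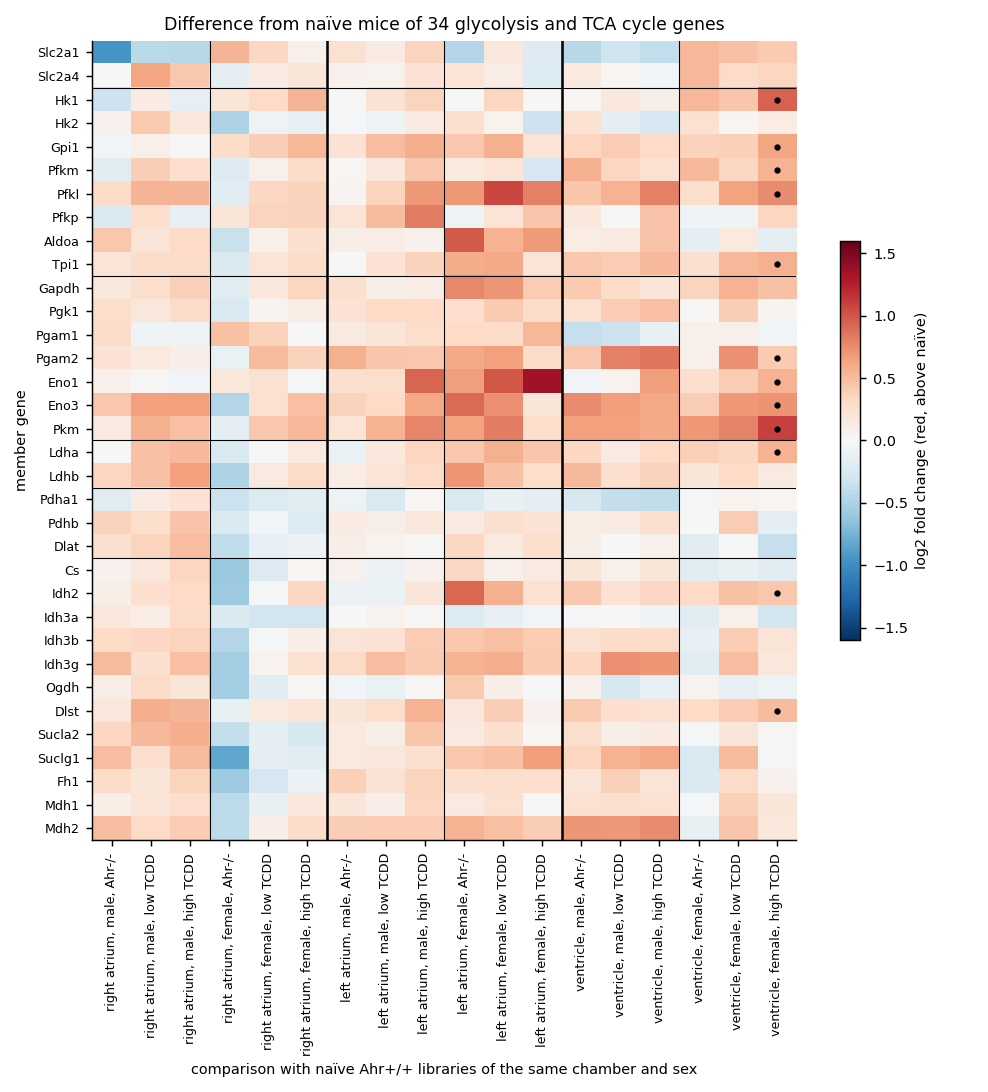
Log2 fold change against naïve libraries of the same chamber and sex for the 34 members (rows, by role) in 18 comparisons (columns); red is above naïve, blue below, and dots mark members called at an edgeR adjusted p under 0.05. Dots occur in the high-dose female ventricle column alone, 12 in number, and in 16 of the other 17 columns the median member is above 0 without a call. Columns are as labelled, with libraries against their labels kept, and female ventricle columns hold none of these.

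In female left atria several glycolysis members had large but variable differences. Eno1 was at 67.5, 67.2 and 99.6 CPM in naïve and at 113, 117 and 358 CPM in high-dose libraries (log2 fold change 1.35, SE 0.48, edgeR adjusted p = 0.592). The highest value came from library 64, where the share of Eno3 in both enolases was 60.2% and that of Ldhb in both lactate dehydrogenase subunits 64.8%, the lowest of the 72 libraries for each. The same library had a T cell marker sum of 210 CPM. That sum in the other libraries is not given here, so 210 CPM cannot be set against them. The part of those cells was not tested. In low-dose female left atria Pfkl reached 1.07 (SE 0.30, edgeR adjusted p = 0.168) and Eno1 0.99 (SE 0.28, edgeR adjusted p = 0.168). In Ahr-/- female left atria Aldoa reached 0.98, Idh2 0.92 and Eno3 0.90, each with an edgeR adjusted p of 0.359, and 2 of the 3 libraries there (23 and 24) were among those with under 100 CPM of Myl4.

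With both sexes in 1 model, members were called in ventricles after either dose, at shares close to those of all genes. After the high dose Pkm rose by 0.86 (SE 0.21, edgeR adjusted p = 0.0209) and Pfkl by 0.79 (SE 0.22, edgeR adjusted p = 0.0338) on the log2 scale, 2 of 34 members, while 6.17% of all genes were called higher. After the low dose Pgam2 rose by 0.77 (SE 0.19, edgeR adjusted p = 0.0234), Pkm by 0.72 (SE 0.19, edgeR adjusted p = 0.0275) and Eno3 by 0.68 (SE 0.19, edgeR adjusted p = 0.0316), 3 of 34 against 6.2% of all genes. These are 5.88% and 8.82% of the members. Without the male libraries that went against their labels, 11 members were called higher after the high dose (11.1% of all genes) and 1, Eno3, after the low dose (2.58% of all genes). The remaining 7 comparisons, Ahr-/- ventricles included, called 0 members by edgeR, with 0% to 0.0732% of all genes called. In Ahr-/- and high-dose right atria these were 0.00655% and 0.0732%, in Ahr-/- left atria 0.0132% and in Ahr-/- ventricles 0.0347%. In the other 3 it was 0%. Among the member tests of these 7 comparisons 18 had an unadjusted p under 0.05. The same count over all gene tests is not given here, so the 18 cannot be set against it. DESeq2 called 2 members (Eno1 and Pfkp in high-dose left atria, where 1.53% of all genes were called higher).

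Whether the high dose acted differently by sex was tested as an interaction in ventricles. As labelled, 0 members were called by edgeR or DESeq2, 1 had an unadjusted p under 0.05, and 0% of all genes were called. The test had little power. On simulated counts of this design edgeR called 2.02% of genes changed 2-fold and 26.5% of those changed 4-fold. The lack of calls therefore does not show that the sexes responded alike. Males stood at a log2 fold change of 0.09 for Hk1 (SE 0.25) and 0.61 for Pkm (SE 0.35). When naïve library 53 and high-dose library 65 were left out, 5 members differed between the sexes, while 8.03% of all genes did. Hk1 (0.94, SE 0.24, edgeR adjusted p = 0.0268) and Slc2a1 (1.35, SE 0.30, edgeR adjusted p = 0.0128) had the higher log2 fold change in females. Aldoa (-0.95, SE 0.23, edgeR adjusted p = 0.0225), Suclg1 (-1.01, SE 0.25, edgeR adjusted p = 0.0221) and Mdh2 (-1.03, SE 0.29, edgeR adjusted p = 0.0419) had the higher one in males. Over the alternatives each of these 5 had an adjusted p of up to 1.00, and this fit rested on 2 male libraries a group.

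Chambers of naïve mice gave no call as labelled. Between ventricle and right atrium 0 members were called, with 6 unadjusted p under 0.05 and 0.00664% of all genes called. Between ventricle and left atrium it was 0, with 2 unadjusted p under 0.05, and between the atria 0, with 0 unadjusted, and 0% of all genes were called in both. The share of all genes with an unadjusted p under 0.05 is not given here. DESeq2 also called 0 members in the 3 comparisons.

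Without the 4 naïve libraries against their labels the ventricle separated. Between ventricle and right atrium 14 of 34 members were then called higher in ventricle and 0 lower, against 9.41% of all genes called higher. The largest were Idh2 (1.11, SE 0.21, edgeR adjusted p = 0.00277), Ldhb (1.09, SE 0.17, edgeR adjusted p = 8.96e-04), Ogdh (1.02, SE 0.19, edgeR adjusted p = 0.00255) and Hk2 (0.98, SE 0.28, edgeR adjusted p = 0.0209). Between ventricle and left atrium 15 were called higher and 0 lower, against 5.88% of all genes, led by Ldhb (0.93, SE 0.15, edgeR adjusted p = 0.0016), Idh2 (0.90, SE 0.19, edgeR adjusted p = 0.00632), Dlat (0.80, SE 0.21, edgeR adjusted p = 0.0182) and Aldoa (0.80, SE 0.22, edgeR adjusted p = 0.0257). The libraries were left out by Myl4, Xist and Y-linked genes, none of which is a member. Myl4 is itself a chamber marker, however. The calls here, and those over all groups in the next paragraph, are thus not independent of the choice of libraries. Between the atria 0 members were called and 0 had an unadjusted p under 0.05.

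Over the 55 libraries of all groups that matched their labels, 28 of 34 members were called higher in ventricle than in each atrium and 1, Pgam1, lower (28.7% of all genes were lower than in right atrium and 27% than in left atrium). Among all genes 24.5% were called higher than in right atrium and 24% than in left atrium, against 82.4% of the members. Every member of the pyruvate dehydrogenase complex and the TCA cycle was among those higher. Those not called were Slc2a1, Hk1, Gpi1, Pfkp and Eno1, of which Gpi1 is the sole one without a muscle-type partner.

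**Figure D4:**
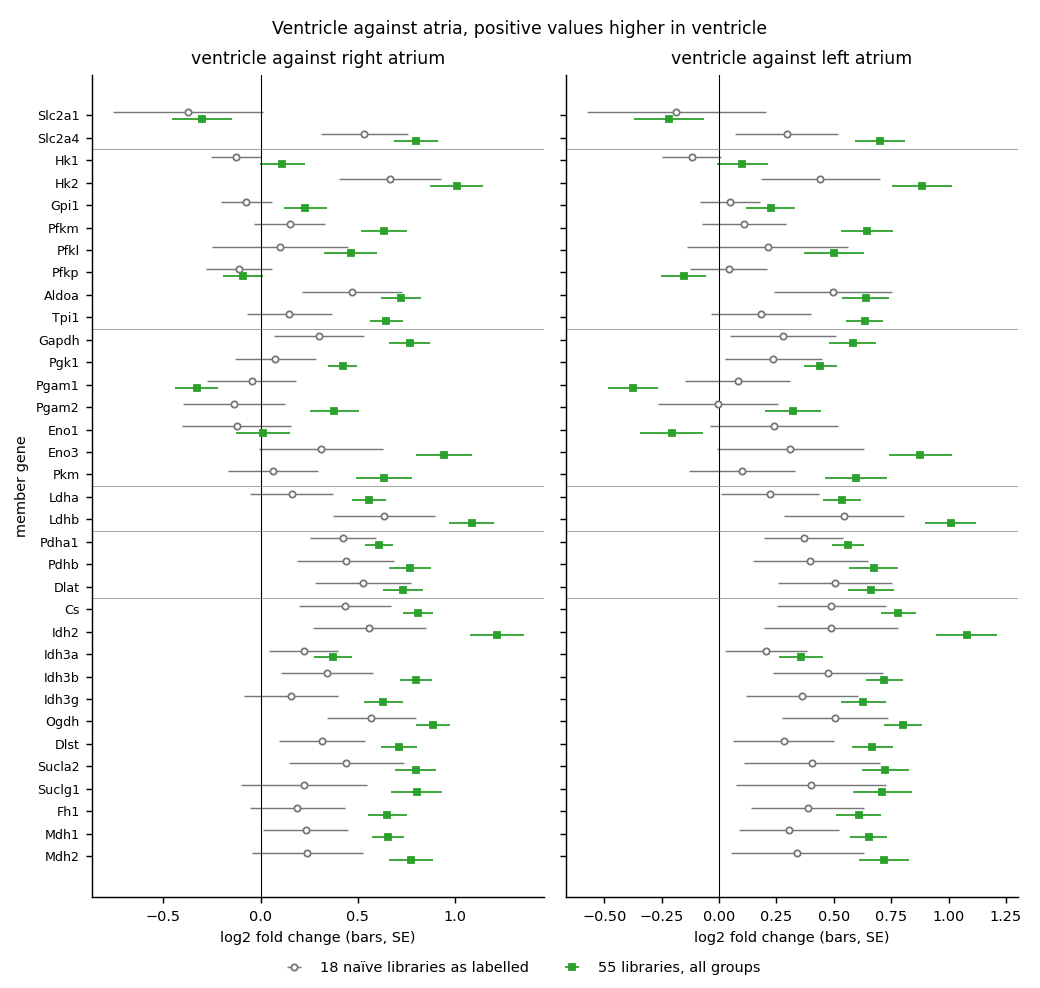
Log2 fold change of the 34 members between ventricle and right atrium (left) and left atrium (right), with SE; open circles are the 18 naïve libraries as labelled and filled squares the 55 libraries of all groups whose sex and chamber genes matched their labels. Most members shift to the right in the second set, with Idh2 at 1.21 and 1.08, while Slc2a1, Hk1, Pfkp and Eno1 stay near or left of 0.

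Ogdh, the first component of the 2-oxoglutarate dehydrogenase complex, separated the chambers fully. Its lowest, median and highest values were 2389, 2988 and 3375 CPM in 19 ventricle libraries and 1123, 1728 and 2265 CPM in 36 atrial libraries. Idh2 was at 2216, 3061 and 4309 CPM in ventricle and 565, 1523 and 2455 CPM in atria, with a small overlap. Ldhb was at 2779, 3423 and 4274 CPM against 784, 1717 and 3030 CPM. Cs, the entry enzyme of the TCA cycle, was at 1488, 1853 and 2275 CPM against 753, 1108 and 1549 CPM. Pgam1, the widely expressed phosphoglycerate mutase, ran the other way at 77, 109 and 137 CPM against 81.4, 132 and 258 CPM.

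Tissue makeup differed between the same libraries. The cardiomyocyte sum had a median of 54327 CPM in ventricle, 46267 CPM in right atrium and 48171 CPM in left atrium, with wide overlap, and 5 of its 6 genes were called higher in ventricle. The fibroblast sum was 828 to 1589 CPM in ventricle, 1438 to 3033 CPM in right atrium and 1486 to 2884 CPM in left atrium, with 4 of 4 genes called lower in ventricle. The adipocyte sum reached 20.3 CPM in ventricle and 2404 CPM in right atrium, with 6 of 6 genes called lower in ventricle. Their part in the chamber differences was not tested.

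The balance of isoenzymes was compared as the share of 1 gene in the summed CPM of its family, the muscle-type gene for 5 families and the heart-type Ldhb for lactate dehydrogenase, over 3 pairs of chambers. In naïve libraries as labelled 0 of 18 comparisons were called (exact two-sided permutation test of 6 against 6, Benjamini-Hochberg over 18), and 1 had an unadjusted p under 0.05. That was Ldhb, at 86.0% ± 2.63 (SD, n = 6) in ventricle and 81.7% ± 3.52 (SD, n = 6) in right atrium (exact permutation p = 0.0303, adjusted p = 0.390). Hk2 was at 77% ± 6.25 in ventricle, 65.4% ± 11.8 in right atrium and 68.4% ± 8.31 in left atrium (SD, n = 6 each).

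Over the 55 libraries that matched their labels, a choice made after seeing the data, each of the 6 shares was higher in ventricle than in either atrium and none differed between the atria. Hk2 was at 75.9% ± 4.70 (SD, n = 19) in ventricle, 62.7% ± 7.23 (SD, n = 18) in right atrium and 64.1% ± 6.86 (SD, n = 18) in left atrium, the widest gap of the 6 (two-sided permutation test, p = 2e-05 for each atrium, the smallest these permutations can give, adjusted p = 5.14e-05). Pgam2 was at 81.1% ± 5.14, 74.1% ± 6.79 and 73.5% ± 6.61 in the same order (permutation test, adjusted p = 0.00159 and 7.20e-04). Slc2a4 was at 94.6% ± 1.5, 88.9% ± 5.52 and 90.3% ± 2.37, and Ldhb at 86.5% ± 1.95, 81.9% ± 3.34 and 81.6% ± 5.25. Chambers of 1 heart share an animal, which the labels do not trace, so libraries were treated as independent.

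**Figure D5:**
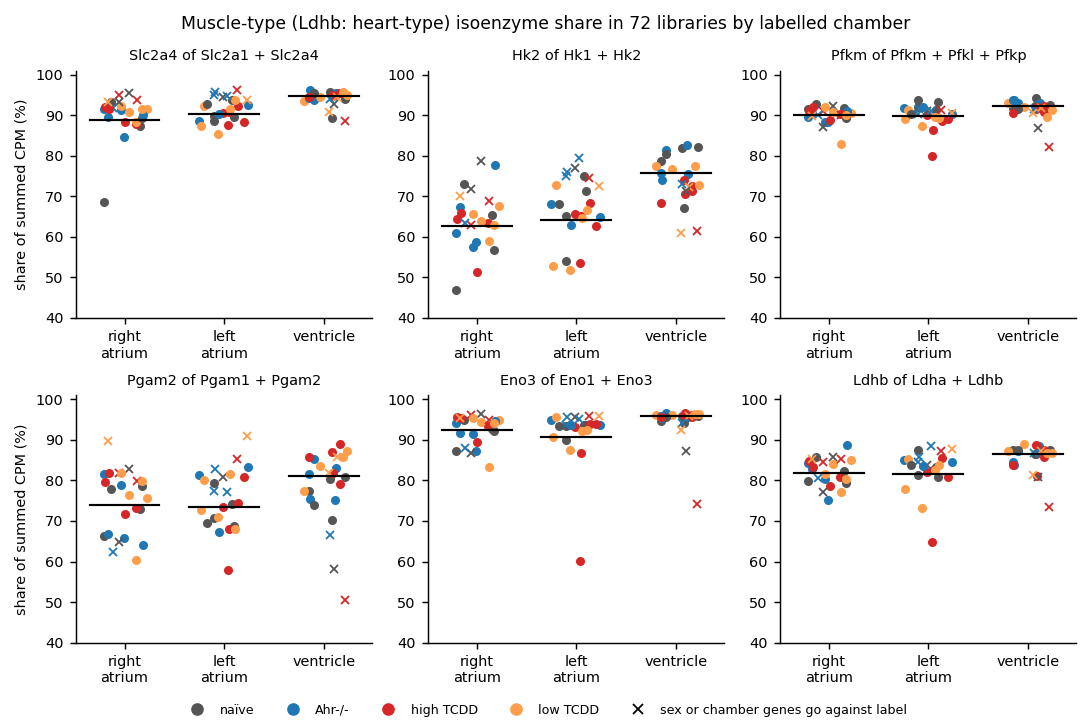
Share of the muscle-type gene (for lactate dehydrogenase the heart-type Ldhb) in the summed CPM of its isoenzyme family (percent, axis from 40) in the 72 libraries by labelled chamber; colours are the groups, crosses the 17 libraries whose sex or chamber genes went against the label, and lines the mean of the others. The Hk2 share averages 75.9% in ventricle against 62.7% and 64.1% in the atria, and 1 left atrial library lies apart at 60.2% for Eno3.

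Hk1 had the smallest adjusted p of any member between high-dose and naïve female ventricles, yet did not pass the test between ventricle and either atrium over the 55 libraries (0.11, SE 0.12, and 0.10, SE 0.11). Ogdh and Cs, apart by 0.89 and 0.81 between ventricle and right atrium, differed by -0.08 and -0.17 between high-dose and naïve female ventricles and were not called there.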

How the data were processed

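The deposited values are whole-number counts per gene. Per the study's methods, the authors made these counts from 50-cycle single reads of poly-A libraries (CASAVA 1.8), aligned to mm10 with TopHat and counted over coding regions; the strand setting is not given in the sources used here. How reads of near-identical genes were assigned, which bears on Eno1, is not given in the sources used here. The members and gene lists were chosen with earlier results of these data known.

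Counts of the 24155 named genes were analysed with edgeR 4.0.16 (R 4.3.3; 82 unnamed entries, holding 3.91% of counts, were left out), with filterByExpr at a minimum count of 10, TMM scaling, the quasi-likelihood test and Benjamini-Hochberg adjustment over all genes tested. Members were called at an adjusted p under 0.05. Each group was compared with naïve libraries of its chamber and sex (3 against 3), then with both sexes in 1 model, and naïve chambers were compared over 18 libraries. Isoenzyme shares were compared by permutation tests (scipy 1.17.1). The p-values measure the spread between libraries, and the labels do not trace chambers to mice. Scripts were tested on simulated data.

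Members given with values in every library were the 8 with the largest absolute log2 fold change among those called in high-dose female ventricles. For chambers they were up to 4 called members in each direction by log2 fold change, the isoenzyme families were described whatever their values, and other pathway genes were named when called, up to 4 in each direction (1 of these is not reported here). Further members are named by size or p, after their values were seen. A library went against its label where Xist or the summed Y-linked genes crossed 20 CPM, or where Myl4 was under 100 CPM in an atrium or over 500 CPM in a ventricle. Alternatives were DESeq2 1.42.0, the stricter threshold of 0.0001, no filter, RLE or library-size scaling, trends on GC content or length removed, a term for the library series (1 to 48 or 49 to 72), libraries 1 to 48 alone, all 4 groups in 1 fit, libraries against their labels left out, and each library left out in turn. Totals of 11873417 to 28789382 counts a library gave every member at least 423 counts, so replicate spread and not counting error sets the precision.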

Additional observations from a re-analysis of the deposited data

Results flagged for a closer look

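Among 120 checks of the members' CPM and isoenzyme shares in the naïve chamber groups of 6 libraries, 13 had an extreme library far from the other 5 (Dixon's criterion, which chance meets in about 1 of 20 groups). In 8 of the 13 it was library 53, labelled as a naïve male ventricle, which held Xist and 1378 CPM of Myl4. There Ldhb was at 1471 CPM, Ogdh at 1897 CPM and Mdh1 at 2040 CPM, all below the other naïve ventricles, while Pfkp at 59.2 CPM and Eno1 at 188 CPM were above them. Its share of Pfkm was 86.8%, that of Eno3 87.2% and that of Ldhb 80.8%, each the lowest of the 6. In naïve male ventricle library 33 Hk1 was highest at 214 CPM and Pfkl lowest at 32.3 CPM. Ldhb stood at 2944 CPM in naïve female right atrium library 4 and Pdhb at 1727 CPM in naïve male left atrium library 51, the highest of their groups, and both libraries held under 100 CPM of Myl4. In naïve male right atrium library 1 the Slc2a4 share was 68.5%, the lowest of the 6. The part of mixed labels in these values was not tested.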

How the results depend on the processing

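The 12 members called in high-dose female ventricles (12.2% of all genes higher, 11.4% lower) became 0 at an adjusted p of 0.0001 (0.0214% and 0.00714%). They became 4 with library-size scaling (4.35% and 12.6%) and 6 with libraries 1 to 48 alone (6.50% and 6.05%). With all 4 groups in 1 fit 2 were called (3.14% and 1.82%). With the GC trend removed 4 were called higher and Aldoa, not one of the 12, lower (7.77% and 5.43%). When 1 library was left out, 4 to 13 were called (4 without library 35, 6 without library 66, 7 without library 43), while 5.53% to 13.6% of all genes were called higher. DESeq2 gave 15 (14 higher and Dlat lower, against 13.5% and 13.4% of all genes). The library series term gave 13 (12 higher and Dlat lower, against 12.4% and 11.5%). No filter and RLE scaling gave 12 each, all higher (9.05% and 12.1% of all genes were higher). The length trend gave 9, all higher (11.4% of all genes were higher). None of the 12 reversed. The 0 members of the sex interaction became 5 without libraries against their labels. The 0 between ventricle and right atrium became 14 without those libraries, 25 over all 72 libraries and 29 (28 higher, Pgam1 lower) over all groups without them, while 21.0%, 31.8% and 53.2% of all genes were called in either direction. For the left atrium these were 15, 20 and 29 (28 higher, Pgam1 lower), with 15.7%, 18.9% and 51.0% of all genes. The 0 summed over the other 17 comparisons became 5 with DESeq2 (0.865% of member tests, 0.696% of all gene tests) and 21 with libraries 1 to 48 alone (3.63% and 2.26%). Of these 21, 15 were in Ahr-/- female left atria, which then held libraries 23 and 24, both against their labels, and 6 in high-dose male ventricles. The share of all genes called in those left atria alone is not given here, so the 15 cannot be set against it. Without libraries against their labels the sum was 6 (1.10% and 1.03%), where 16 of the 17 could be fitted. Leaving out 1 library gave 0 to 4, the 4 without Ahr-/- female ventricle library 39. The 5 with both sexes together became 0 at 0.0001, 3 with library-size scaling (0.980% of member tests, 2.47% of all gene tests), 17 with DESeq2 (5.56% and 5.17%), 12 without libraries against their labels (3.92% and 3.31%) and 12 with libraries 1 to 48 alone (3.92% and 3.71%). The 0 isoenzyme shares became 5 over all 72 libraries and 12 over all groups without libraries against their labels, chosen after seeing the data. Causes of these moves were not tested. Where a group kept 1 or 2 libraries, the spread was pooled over the fit. No paired analysis was possible because no library number recurs between groups and the labels name no mouse for any library.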

Other observations

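Other genes of glucose and pyruvate metabolism also differed between chambers over the 55 libraries that matched their labels. Of 56 tested, 37 were called higher and 13 lower in ventricle than in right atrium, and 35 higher and 10 lower than in left atrium (edgeR, adjusted p under 0.05). The shares higher were 66.1% and 62.5%, against 24.5% and 24% of all genes, and the shares lower 23.2% and 17.9%, against 28.7% and 27% of all genes.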
